A study of Mus musculus with 16 samples.

Results

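The genes described here are 8 genes of the podocyte, the cell that wraps the capillaries of the kidney glomerulus: Nphs1, Podxl, Synpo, Cd2ap, Magi2, Ptpro, Plce1 and Wt1. They were chosen by symbol as genes known for the slit diaphragm and the foot processes of this cell, with earlier results of these data known, and each matched a single row among the 32989 genes of the kidney table and of the liver table. RNA was sequenced from whole kidney and whole liver of 8 male C57BL/6J mice aged 97 weeks, which gave 16 libraries. The 4 LD-conditioned mice had lived for 85 weeks in a constant light–dark cycle with lights on from 8 to 20 h, and are called L63, L65, L86 and L104. The 4 ADV-conditioned mice had lived for the same 85 weeks in chronic jet lag, with the light cycle advanced by 8 h every 4 days, and are called A75, A91, A94 and A115. The comparisons asked how the podocyte genes stood in aged kidneys under each light condition, with the liver, an organ without podocytes, for contrast.

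Podocytes send out foot processes that interlock around the glomerular capillary, and the gap between neighbouring processes is bridged by the slit diaphragm, the last layer of the filter that keeps protein out of the urine. Transmembrane proteins such as nephrin form the diaphragm, adaptors tie it to the actin of the foot process, and a negatively charged sialomucin coat keeps the processes apart on the urinary side. Inherited loss of several of these genes causes nephrotic syndrome, in which the filter leaks. Glomeruli are a small part of the kidney's mass, so that podocyte transcripts are a small part of whole-kidney RNA.

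Levels are given as FPKM, fragments per kilobase of exon, scaled to a common library total. The kidney libraries held 15688495 to 18043306 fragments on genes and the liver libraries 21092501 to 24285055. The kidney of A115 stood apart from the other 7. Its mean correlation with the other kidneys across genes was 0.858, against 0.932 to 0.964 for the rest, and mitochondrial transcripts took 30.9% of it, against 14.6 to 16.5% in the LD kidneys and 8.63 to 11.98% in the other 3 ADV kidneys. Of the livers, A94 was the least like the rest, at 0.941 against 0.977 to 0.982. In all 4 ADV kidneys the deviation of a gene from the LD mean went with the GC content of its transcript, upwards with GC in A75, A91 and A94 and steeply downwards in A115. The libraries were sequenced by 2 providers, and which provider read which library is not given in the sources used here, so that provider and light condition cannot be told apart. The members' kidney differences and the medians of the gene lists are therefore also given without A115.

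The members reach from the lowest to the highest of 8 equal classes of transcript GC content, from 38.6% in Cd2ap, through 47.7% in Plce1, 50.2% in Ptpro, 50.7% in Magi2, 52.0% in Podxl and 53.7% in Wt1, to 56.4% in Nphs1 and 58.2% in Synpo. Coding stretches of 90 bases from the GENCODE M21 transcripts of 3 members are shown to make that difference visible, since the kidney values are set beside GC content below. The transcripts used for GC content are shorter than the file's exon length for Nphs1 (4608 against 5631 bases) and Ptpro (5096 against 6595), so that the GC content of these 2 is less certain. Each is the stretch of the longest coding exon whose GC content is closest to that of the whole transcript, read 5′ to 3′ on the coding strand, with G and C in capitals. The Cd2ap stretch lies on the minus strand of GRCm38 at chr17:42829922-42830011 in exon 6 of 18 and holds 35 G or C. The Podxl stretch lies on the minus strand at chr6:31528917-31529006 in exon 2 of 8 and holds 47. The Nphs1 stretch lies on the plus strand at chr7:30460333-30460422 in exon 2 of 30 and holds 51.
Cd2ap: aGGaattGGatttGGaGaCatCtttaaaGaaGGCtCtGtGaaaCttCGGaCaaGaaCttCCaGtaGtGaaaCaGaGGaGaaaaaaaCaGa
Podxl: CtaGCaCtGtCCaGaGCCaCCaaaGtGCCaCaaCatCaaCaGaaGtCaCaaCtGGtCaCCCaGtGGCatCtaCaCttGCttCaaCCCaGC
Nphs1: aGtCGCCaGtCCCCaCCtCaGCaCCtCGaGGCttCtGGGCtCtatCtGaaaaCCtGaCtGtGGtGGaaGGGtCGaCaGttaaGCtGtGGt

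Nphs1 encodes nephrin, the transmembrane protein of the immunoglobulin superfamily that builds the slit diaphragm. Its row (uc009gen.1) spans chr7:30460058-30488609 on the plus strand, with 5631 bases of exon. In the LD kidneys its level was 4.25, 4.32, 4.36 and 4.46 FPKM in L63, L65, L86 and L104, and in the ADV kidneys 4.75, 5.02, 5.11 and 0.960 FPKM in A75, A91, A94 and A115. The 3 other ADV kidneys lay above every LD kidney, while A115 lay at 0.221 times the LD mean, with 103.5 fragments against 416 or more in each of the other 7. The ADV minus LD difference on the log2(FPKM + 0.1) scale was −0.38 ± 0.50 (SE, n = 4 against 4, limma), with an adjusted p of 0.9999. Without A115 it was 0.19 ± 0.10 with an adjusted p of 0.216 by limma, and with a correction for GC content as well −0.31 ± 0.12 with an adjusted p of 0.224. With A115 left out and libraries scaled by the median ratio of their genes it was −0.0066 ± 0.11 (limma, adjusted p 0.972). In whole-organ RNA, fewer podocytes and less of a transcript per podocyte cannot be told apart. Exons of Nphs1 share 597 bases with the antisense gene Nphs1os, and it is not stated whether the counting used the strand, so that reads of the pair may be mixed.

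Podxl encodes podocalyxin, the sialomucin of the urinary surface of the foot processes, which vascular endothelium also makes. Its row (uc009bgh.2) spans chr6:31519493-31563937 on the minus strand. Its level was 37.0, 38.7, 37.3 and 37.5 FPKM in the LD kidneys L63, L65, L86 and L104, and 41.7, 39.5, 37.3 and 17.0 FPKM in A75, A91, A94 and A115. The groups overlapped, and again A115 was the lowest of the 8, at 0.451 times the LD mean. The difference was −0.23 ± 0.28 in log2 (SE, limma, adjusted p 0.9999), and 0.07 ± 0.08 without A115 (adjusted p 0.531), which turned to −0.17 ± 0.09 with the GC correction as well (adjusted p 0.332). The summed level of the 9-gene endothelial list was 170 to 193 FPKM in the LD kidneys and 141 to 212 FPKM in the ADV kidneys. It was highest in A75 and lowest in A115 as Podxl was. So were the sums of the further podocyte genes, the adaptors and the distal nephron genes described below. The endothelial sum was lower in A91 (162 FPKM) than in A94 (188 FPKM), where Podxl was higher in A91. The part of endothelium in the Podxl values was not tested.

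Synpo encodes synaptopodin, an actin-binding protein of the foot processes. Its row (uc008faq.2) spans chr18:60593990-60630085 on the minus strand. Its level was 5.40, 5.56, 6.53 and 5.46 FPKM in L63, L65, L86 and L104, and 9.95, 7.55, 7.65 and 1.48 FPKM in A75, A91, A94 and A115. A75, A91 and A94 were all above the LD range and A115 was far below it, at 0.258 times the LD mean. With all 8 kidneys the log2 difference was −0.07 ± 0.54 (SE, limma, adjusted p 0.9999). Without A115 it was 0.53 ± 0.13 with an adjusted p of 0.0318 by limma. Synpo was the only member called in that fit, where 16.1% of all genes were called higher. With A115 left out and a correction for GC content the difference was −0.07 ± 0.11 with an adjusted p of 0.750.

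**Figure D1:**
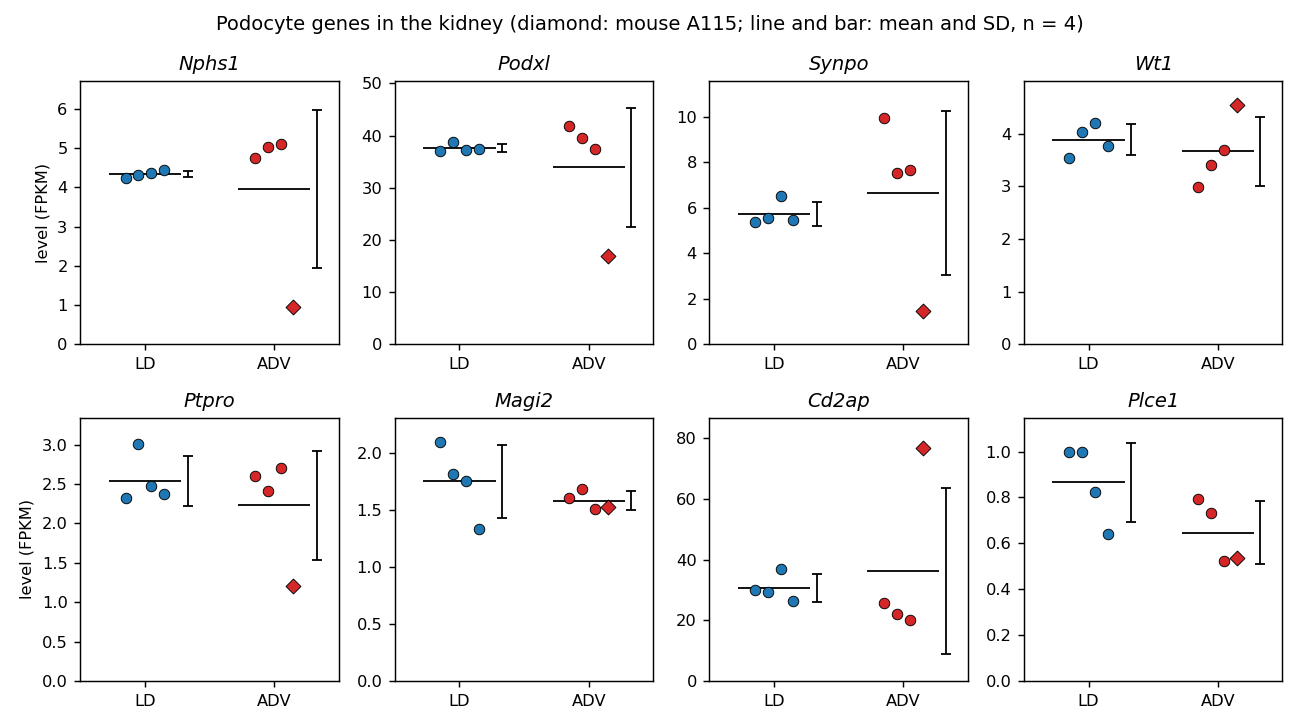
Level of each member in FPKM (vertical axis, from 0) in the 4 LD and the 4 ADV kidneys, 1 point per mouse, with the mean as a line and the SD as a bar beside it and A115 as a diamond. A115 is the lowest ADV kidney for Nphs1, Podxl, Synpo and Ptpro and the highest for Wt1 and Cd2ap, where it reaches 77.0 FPKM.

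Cd2ap encodes an adaptor that binds nephrin and links it to actin, and many cell types other than podocytes make it. Its row (uc008cot.1) spans chr17:42792951-42876424 on the minus strand. Its level was 29.8, 29.5, 37.0 and 26.2 FPKM in L63, L65, L86 and L104, and 25.6, 22.2, 20.2 and 77.0 FPKM in A75, A91, A94 and A115. This is the reverse of Synpo: A75, A91 and A94 were below every LD kidney, and A115 was 2.51 times the LD mean. The log2 difference was 0.01 ± 0.41 with all 8 kidneys (SE, limma, adjusted p 0.9999) and −0.43 ± 0.13 without A115 (adjusted p 0.0569). With A115 left out and libraries scaled by the median ratio of their genes it was −0.63 ± 0.13 (adjusted p 0.0250), and there Cd2ap and not Synpo passed the threshold. With A115 left out and the GC correction it was −0.19 ± 0.16 (adjusted p 0.512).

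Magi2 encodes a scaffold protein with PDZ domains that binds nephrin from inside the cell. Its row (uc012dsm.1) spans chr5:19227046-20704792 on the plus strand. Its level was 2.10, 1.82, 1.76 and 1.33 FPKM in L63, L65, L86 and L104, and 1.60, 1.69, 1.51 and 1.53 FPKM in A75, A91, A94 and A115. The ADV values lay within the LD range, A115 among them, and the log2 difference was −0.12 ± 0.19 (SE, limma, adjusted p 0.9999) and −0.11 ± 0.18 without A115. With A115 left out it was −0.29 ± 0.19 with median-ratio scaling and −0.27 ± 0.18 with the GC correction (adjusted p 0.286 and 0.423). Its exons share 203 bases with Gm29254 on the same strand, so that reads of this stretch could have gone to either gene.

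Ptpro encodes a receptor tyrosine phosphatase of the podocyte's urinary surface, which some leukocytes also make. Its row (uc009emv.3) spans chr6:137252299-137464634 on the plus strand. Its level was 2.32, 3.003, 2.47 and 2.37 FPKM in L63, L65, L86 and L104, and 2.61, 2.41, 2.70 and 1.20 FPKM in A75, A91, A94 and A115. A75, A91 and A94 lay within the LD range, and A115 below it at 0.474 times the LD mean. The log2 difference was −0.24 ± 0.28 (SE, limma, adjusted p 0.9999), and 0.02 ± 0.14 without A115, or −0.11 ± 0.14 with the GC correction as well (adjusted p 0.662).

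Plce1 encodes phospholipase C epsilon, a signalling enzyme needed for the filter to mature. Its row (uc008hjp.2) spans chr19:38524197-38785105 on the plus strand. Its level was 0.998, 0.998, 0.826 and 0.639 FPKM in L63, L65, L86 and L104, and 0.794, 0.730, 0.525 and 0.537 FPKM in A75, A91, A94 and A115. The 2 highest kidneys were LD and the 2 lowest ADV, but the ranges overlapped. The log2 difference of −0.37 ± 0.23 did not pass the test (SE, limma, adjusted p 0.9999), nor did −0.30 ± 0.23 without A115. With A115 left out and median-ratio scaling it was −0.47 ± 0.23 (limma, adjusted p 0.179).

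Wt1 encodes the zinc finger transcription factor that keeps podocytes differentiated, and mesothelium makes it too. Its row (uc008lko.2) spans chr2:105126529-105173614 on the plus strand. Its level was 3.53, 4.04, 4.19 and 3.76 FPKM in L63, L65, L86 and L104, and 2.99, 3.41, 3.69 and 4.55 FPKM in A75, A91, A94 and A115. A115 was the highest of the 8 kidneys, at 1.17 times the LD mean, and A75 the lowest. The log2 difference was −0.10 ± 0.18 with all kidneys and −0.20 ± 0.13 without A115 (SE, limma, adjusted p 0.9999 and 0.280). Leaving A115 out gave −0.39 ± 0.13 with median-ratio scaling and −0.54 ± 0.13 with the GC correction (limma, adjusted p 0.0716 and 0.123). The summed level of the 5-gene mesothelial list was also lowest in A75 and highest in A115 among the ADV kidneys, at 46.3 and 63.7 FPKM. In the LD kidneys it was 55.8 to 61.0 FPKM. The genes of the list did not all follow the sum. With A115 in the fit the differences of Msln, Upk3b and Krt19 were lower (0.98, 0.03 and 0.12) than without it (1.90, 0.53 and 0.65). That of Gpm6a was higher with A115 (−0.24 against −0.41). The part of mesothelium in the Wt1 values was not tested.

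In the kidney, 0 of the 8 members passed the limma test of ADV against LD, and 0% of all 14452 genes tested did (0 genes, with 448 at an unadjusted p under 0.05 and 0 of the members among these). The fit of recovered fragments with limma-voom also called 0 genes, with 410 at an unadjusted p under 0.05. The members' standard errors ranged from 0.18 for Wt1 to 0.54 for Synpo, and for 7 of the 8, all but Plce1, they were larger than the differences themselves. By the exact permutation test over the 70 assignments of mice, two-sided, the members' unadjusted p ran from 0.114 for Plce1 to 1, where 0.0286 is the smallest the design allows. In 0 of the 8 did the LD and ADV ranges fail to overlap, as they did for 2.80% of all genes.

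Without A115, 1 of 8 members passed the limma test, Synpo, where 18.8% of all 14475 genes tested passed, 2336 of them higher (16.1%) and 388 lower. The ranges then did not overlap for 3 members, Nphs1 and Synpo above LD and Cd2ap below it, beside 24.8% of all genes above and 8.06% below. With 4 mice against 3, the exact permutation test cannot go below p = 0.0571, and these 3 members were at that value. Scaling by the median ratio, which moved the median difference of all genes from 0.20 to 0.01, changed the split over all genes to 1166 higher and 1143 lower, and again 1 member passed, Cd2ap, which was lower as were 7.90% of all genes. After a correction of each library for GC content, added after the data had been seen, 0 of 8 members and 0% of the 14475 genes passed (0 genes, with 2711 at an unadjusted p under 0.05). In that fit all 8 differences were below 0, from −0.07 for Synpo to −0.54 for Wt1.

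**Figure D2:**
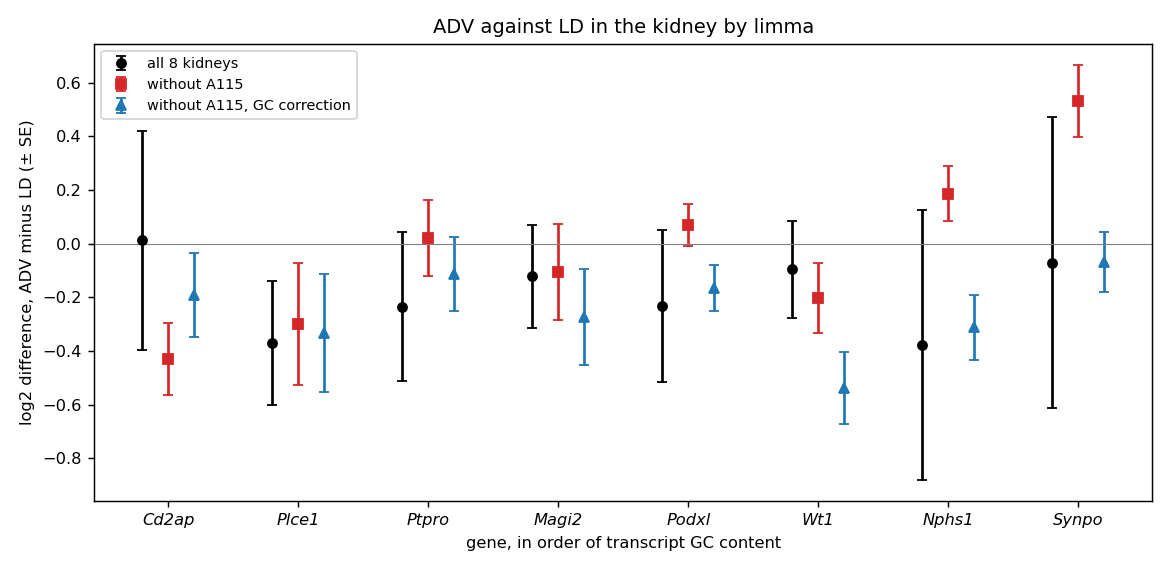
Log2 difference of ADV minus LD in the kidney (vertical axis) with its SE, for the members in order of transcript GC content from Cd2ap (38.6%) to Synpo (58.2%), by limma with all 8 kidneys, without A115, and without A115 after GC correction. Without A115 Cd2ap lies at −0.43 and Synpo at 0.53, and after the correction they lie at −0.19 and −0.07.

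The deviations of single ADV kidneys from the LD mean went with the members' GC content. Over the 8 members, Pearson's r of GC content with the log2 deviation was 0.60 in A75, 0.89 in A91 and 0.86 in A94, and −0.83 in A115, against −0.34 to 0.54 in the LD kidneys; the points are genes of the same library, and no test was made. The 13910 genes tested that had a GC content were divided into 8 equal classes of it. In A115 the class medians ran from 0.47 in the lowest class to −1.96 in the highest, whereas in A75 they ran from −0.30 to 0.79, in A91 from −0.18 to 0.51 and in A94 from −0.11 to 0.77.

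Against the median of its own GC class, Synpo in A115 was at −1.88 where the class was at −1.96, and in A75 at 0.79 with the class also at 0.79. Nphs1 in A115 was lower than its class, at −2.07 against −1.52, and in A75, A91 and A94 it was at 0.13, 0.20 and 0.23 where the class was at 0.62, 0.32 and 0.55. Cd2ap went further than its class in A115, at 1.34 against 0.47. Some members lay on the other side of the LD mean from their class, namely Podxl in A94, Plce1 in A75 and A94, Magi2 in A75, A91 and A94, and Wt1 in each of the 4 ADV kidneys. Wt1 was at −0.36, −0.18 and −0.07 in A75, A91 and A94, where the class was at 0.46, 0.18 and 0.37, and at 0.23 in A115, where the class was at −1.12.

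**Figure D3:**
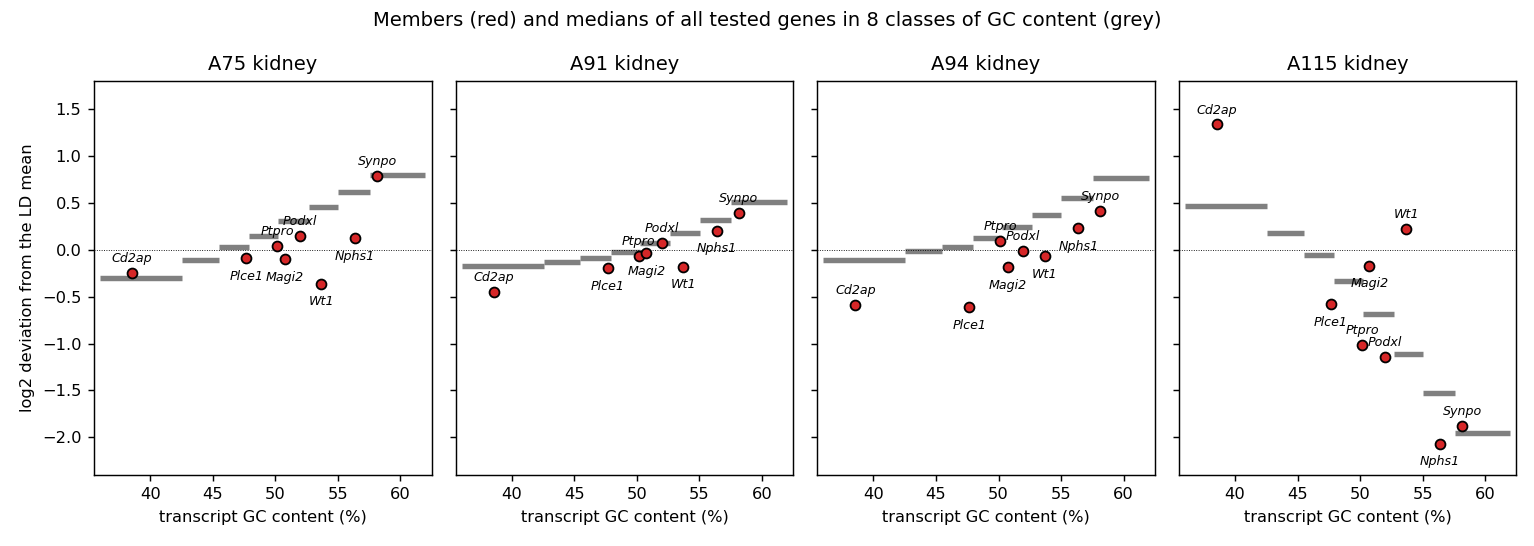
Log2 deviation from the LD mean (vertical axis) against transcript GC content in percent (horizontal axis) for the 4 ADV kidneys, with the 8 members as red points and the medians of all tested genes in 8 classes of GC content as grey bars; the outermost bars are drawn only as far as the axis runs. The grey bars climb in A75, A91 and A94 and fall to −1.96 in A115, and Wt1 lies on the opposite side of 0 from the bar at its GC content in each panel.

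FPKM is per length, so that the members can be ordered by it, but the order is not corrected for their GC content. The pairs tested are neighbours in the order taken from these same kidneys. The tests therefore say only whether the difference in FPKM held within kidneys. By mean over the 8 kidneys the order was Podxl (35.7 ± 7.75 FPKM, SD), Cd2ap (33.4 ± 18.3), Synpo (6.20 ± 2.45), Nphs1 (4.15 ± 1.33), Wt1 (3.77 ± 0.487), Ptpro (2.38 ± 0.526), Magi2 (1.67 ± 0.233) and Plce1 (0.756 ± 0.185). Podxl and Cd2ap did not differ beyond their spread (exact sign-flip permutation test within kidneys, adjusted p 0.793 over 7 pairs), nor did Nphs1 and Wt1 (exact permutation test, adjusted p 0.977). The other 5 neighbouring pairs differed, with adjusted exact permutation p from 0.0137 to 0.0328. Podxl was above Cd2ap, and Nphs1 above Wt1, in 7 of 8 kidneys, as was Ptpro above Magi2, A115 being the exception in each of these pairs. Without A115 each of the 7 neighbours kept the order in all 7 kidneys (exact permutation test, adjusted p 0.0156, which is the smallest this design gives).

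Within the LD kidneys the members differed in how much they varied between mice. The coefficient of variation was 1.95% for Podxl and 1.98% for Nphs1, 7.59% for Wt1, 9.27% for Synpo, 12.4% for Ptpro, 14.9% for Cd2ap, 18.2% for Magi2 and 19.8% for Plce1. The values run in steps of 0.5 fragment. The counts behind them were unequal, at 3409.5 to 3822 fragments for Podxl, 416 to 464.5 for Nphs1 and 110 to 183.5 for Plce1. The part of counting error in these spreads was not tested.

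The members did not vary together as a block. Over the 8 kidneys 16 of the 28 pairs of members had a positive correlation, with a median Pearson's r of 0.19 and a range from −0.94 to 0.99, and without A115 it was 15 of 28 with a median of 0.07. The genes whose pattern over the 8 kidneys was most like the members' mean were Atp6v1b1, Ssbp2 and Wnt9b, with r of 0.99 each, and over the 7 kidneys without A115 Acsl3, with r of 0.96. None of the other podocyte genes listed below was among the 10 most like in either set. These correlations are over few kidneys, with a shared GC trend in the ADV libraries, and are a description.

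Of 15 further podocyte genes, 13 passed the minimum in the kidney and 0 were called, with 4 differences above 0 and 9 below and a median of −0.05 beside −0.02 for all genes tested. Dach1, a transcription cofactor, had the lowest difference of the list at −0.35 ± 0.23 (SE, limma, adjusted p 0.9999). Without A115, 7 differences were above 0 and 6 below, with a median of 0.06 beside 0.20 for all genes tested, and 2 were called where 18.8% of all genes were. With the GC correction as well, 3 were above 0 and 10 below, with a median of −0.12 beside 0.01 for all genes tested, and 0 were called. The summed level of the 15 genes was 114 to 128 FPKM in the LD kidneys and 109 to 140 FPKM in the ADV kidneys.

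Among 18 adaptors and actin linkers of the slit diaphragm, 0 were called, and the median difference was 0.01, from 0.49 ± 0.25 for Fyn, the kinase that phosphorylates nephrin, to −0.34 ± 0.65 for Slc9a3r2. Of 5 podocyte transcription factors, 4 passed the minimum, all with differences above 0 and 0 called, the largest being 0.45 ± 0.19 for Foxc2 (unadjusted p 0.0488, limma adjusted p 0.9999). The 13 genes of the glomerular basement membrane and its receptors had a median of 0.09, from −0.34 for Cd151 to 0.42 for Nid1, and 0 were called. Without A115 the medians were 0.08 for the adaptors, 0.50 for the transcription factors and 0.42 for the basement membrane genes, beside 0.20 for all genes, and with the GC correction as well they were −0.11, −0.13 and 0.0051, beside 0.01.

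Other cell types of the kidney gave medians of −0.12 for 9 endothelial genes, 0.36 for 7 mesangial and mural genes, −0.25 for 12 proximal tubule genes and −0.09 for 10 distal nephron genes, with 0 called in each. The 5 hepatocyte genes tested of 8 had a median of 0.28 and the 4 mesothelial genes tested of 5 a median of 0.08, with 0 called. All 9 leukocyte genes had differences above 0, with a median of 0.79 and 0 called. Without A115 the medians were 0.08 for endothelium, 0.64 for mesangium and mural cells, 0.03 for proximal tubule, 0.20 for distal nephron, 0.58 for hepatocyte, 0.59 for mesothelium and 1.07 for leukocyte genes. With the GC correction as well they were, in the same order, −0.01, 0.38, −0.17, 0.11, 0.59, 0.13 and 0.95. The summed level of the leukocyte genes was 41.8 to 142 FPKM in the LD kidneys and 140.6, 48.9, 338 and 65.3 FPKM in A75, A91, A94 and A115. Over the 11 lists, 0 of the genes tested were called with all kidneys, 17 without A115, all of them higher, 14 without A115 with median-ratio scaling, 9 of them higher and 5 lower, and 0 without A115 after the GC correction. Those 17 came from 9 of the lists: 2 podocyte genes (Rhpn1, at 0.91 ± 0.15, and Sema3g), 2 adaptors (Arhgdia and Dnm2), 1 podocyte transcription factor (Tcf21), 3 basement membrane genes (Lamb2, Hspg2 and Lama5), 1 endothelial gene (Eng), 2 mesangial and mural genes (Des and Gata3), 2 proximal tubule genes (Slc5a2 and Slc34a1), 3 distal nephron genes (Aqp2, Aqp3 and Pvalb) and 1 mesothelial gene (Msln). The highest of them were Msln, at 1.90 ± 0.36, and Aqp2, the water channel of the collecting duct, at 1.36 ± 0.37 (SE, limma), and 18.8% of all genes passed in that fit.

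In the liver the transcript of nephrin was all but missing. Nphs1 was at 0 in 7 livers and had 0.5 fragment in L63. A count of 0 allows up to 3 fragments a library, or 0.0203 to 0.0234 FPKM for Nphs1, so that its mean in the ADV kidneys was at least 169-fold higher than the highest of these limits in an ADV liver. This covers counting error only. Magi2 was nearly as low, with 1 to 7 fragments a liver, and Ptpro had 6 to 20.

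Of the other members, Wt1 was also low in the liver, with 7.5 to 34.5 fragments. Cd2ap was at 5.98, 5.88, 6.55 and 7.06 FPKM in the LD livers L63, L65, L86 and L104 and at 8.20, 6.55, 10.1 and 8.07 FPKM in A75, A91, A94 and A115. Podxl was at 1.55, 1.48, 1.93 and 1.76 FPKM in the LD livers and at 1.77, 1.26, 1.55 and 1.73 FPKM in the ADV livers, and Synpo ranged from 0.504 FPKM in L104 to 1.98 FPKM in A94. Wt1 was at 0.0994 to 0.222 FPKM in the LD livers and at 0.305, 0.126, 0.157 and 0.483 FPKM in A75, A91, A94 and A115. A75 and A115 were also the livers with the highest summed level of the mesothelial list, at 19.9 and 12.2 FPKM against 3.78 to 5.16 FPKM in the LD livers, and its part in the Wt1 values was not tested.

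Plce1 was the member found at a higher level in liver than in kidney. It was at 1.46, 1.62, 1.77 and 1.51 FPKM in the LD livers and at 1.37, 1.36, 1.11 and 1.23 FPKM in the ADV livers, and every liver was above every kidney.

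**Figure D4:**
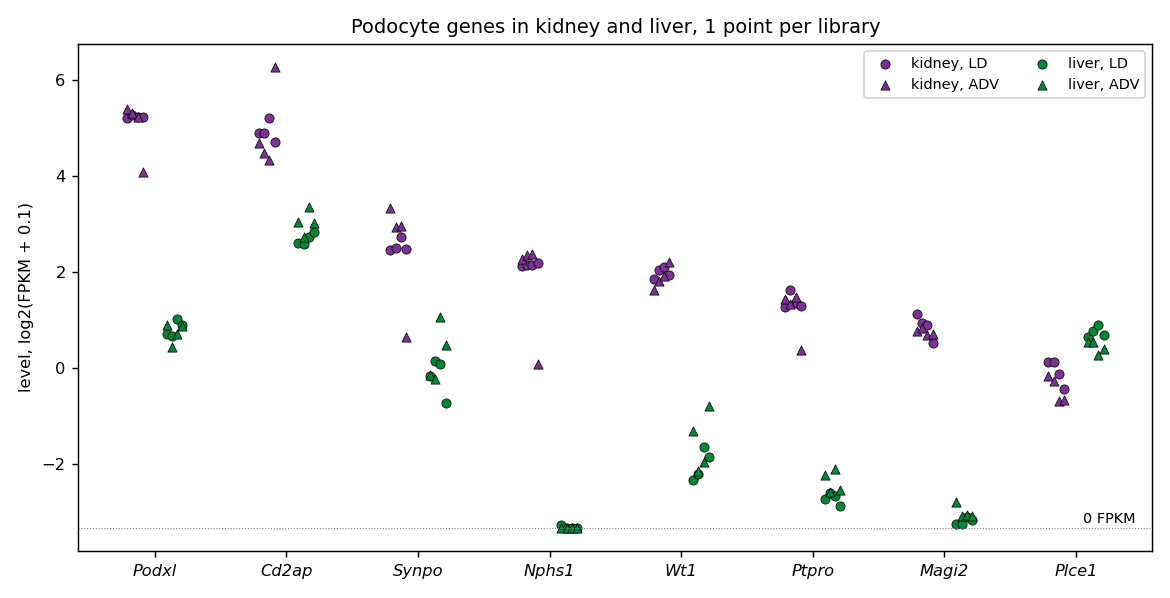
Level of each member as log2(FPKM + 0.1) (vertical axis), in order of mean kidney FPKM, in the 8 kidneys and the 8 livers, 1 point per library, with LD as circles and ADV as triangles; the dotted line marks 0 FPKM. Nphs1 lies at or next to that line in every liver, and for Plce1 the livers lie above the kidneys.

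Between organs, all 8 members passed the limma test, beside 75.1% of all 14968 genes tested, so that passing says little by itself. 7 members were higher in the kidney, as were 61.9% of all genes, and Plce1 was lower, as were 13.2%. As ratios of mean FPKM over 8 kidneys and 8 livers, the kidney was 92.6 times the liver for Magi2, 31.8 times for Ptpro, 22.0 times for Podxl, 17.9 times for Wt1, 6.11 times for Synpo and 4.58 times for Cd2ap, and Plce1 was 1.89 times as high in the liver. The ratio for Magi2 rests on 23 liver fragments in all, and their exact Poisson 95% interval, which covers counting error only, puts it between 61.7 and 146. In LD it was 170 (82.3 to 422, on 7 liver fragments) and in ADV 61.6 (37.9 to 108, on 16), so that these intervals overlapped. The ratio for Ptpro was 47.9 in LD and 23.0 in ADV, and for Wt1 25.1 and 13.7, and neither gene passed limma's test of the interaction of organ and light condition, at −0.59 ± 0.32 and −0.55 ± 0.38 in log2 (unadjusted p 0.0898 and 0.171, adjusted p 0.99996 each). On the log2(FPKM + 0.1) scale Podxl differed by 4.34 ± 0.16, Synpo by 2.44 ± 0.33, Cd2ap by 2.07 ± 0.23 and Plce1 by −0.85 ± 0.13 (SE, n = 8 against 8, limma, adjusted p for Plce1 2.0e-05). The median of all genes on this scale was 0.75 and fell to 0.03 with median-ratio scaling, where Podxl was at 3.58, Synpo at 1.70, Cd2ap at 1.30 and Plce1 at −1.55.

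In the liver, 5 members passed the minimum level and 0 of them were called for ADV against LD, where 0.00779% of 12835 genes were (1 gene, with 1512 at an unadjusted p under 0.05). The log2 differences were −0.09 ± 0.16 for Podxl, 0.46 ± 0.32 for Synpo, 0.45 ± 0.34 for Wt1, 0.35 ± 0.14 for Cd2ap and −0.31 ± 0.14 for Plce1 (SE, limma, adjusted p 0.387 for Cd2ap and 0.429 for Plce1, the lowest of the 5). Without the liver of A94, which also held 1.86 FPKM of summed distal nephron markers where the other livers held at most 0.111, Synpo was at 0.20 and Cd2ap at 0.25, and without that of A115 Wt1 was at 0.20. The part of the distal nephron markers in the values was not tested. The median difference of all genes was 0.10, and with median-ratio scaling 0.00, where Cd2ap was at 0.25 and Plce1 at −0.40.

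The LD and ADV livers did not overlap for 1 of the 5 members tested, Plce1, beside 8.84% of the genes tested (6.94% higher and 1.89% lower in ADV), nor for 2 of the 3 members under the minimum level, Ptpro and Magi2, beside 4.22% of the 6585 genes under it that were above 0 in at least 1 liver. For Plce1 every ADV liver was below every LD liver, 1.26 ± 0.125 against 1.59 ± 0.135 FPKM (SD, n = 4, exact permutation p 0.0286, unadjusted and the smallest possible). For Ptpro the ADV livers were at 0.113, 0.0688, 0.133 and 0.0719 FPKM in A75, A91, A94 and A115. The LD livers were below them, at 0.0371 to 0.0646 FPKM. L65 and A91 both had 10.5 fragments of Ptpro, so that the gap between the groups comes from the library totals. For Magi2 3 to 7 fragments in the ADV livers stood against 1 to 3 in the LD livers. There L86, A91, A94 and A115 had 3 each. For both genes the exact permutation p was 0.0286, unadjusted. With median-ratio scaling the Magi2 ranges overlapped (exact permutation p 0.0571). Both genes are under the minimum level for the limma test within the liver, and the counts of Magi2 are close to the limit that a count of 0 allows. Leukocyte markers were highest in the same livers as Ptpro, with summed levels of 136 FPKM in A75 and 210 FPKM in A94 against 57.6 to 102 FPKM in the LD livers, and their part in the Ptpro values was not tested.

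**Figure D5:**
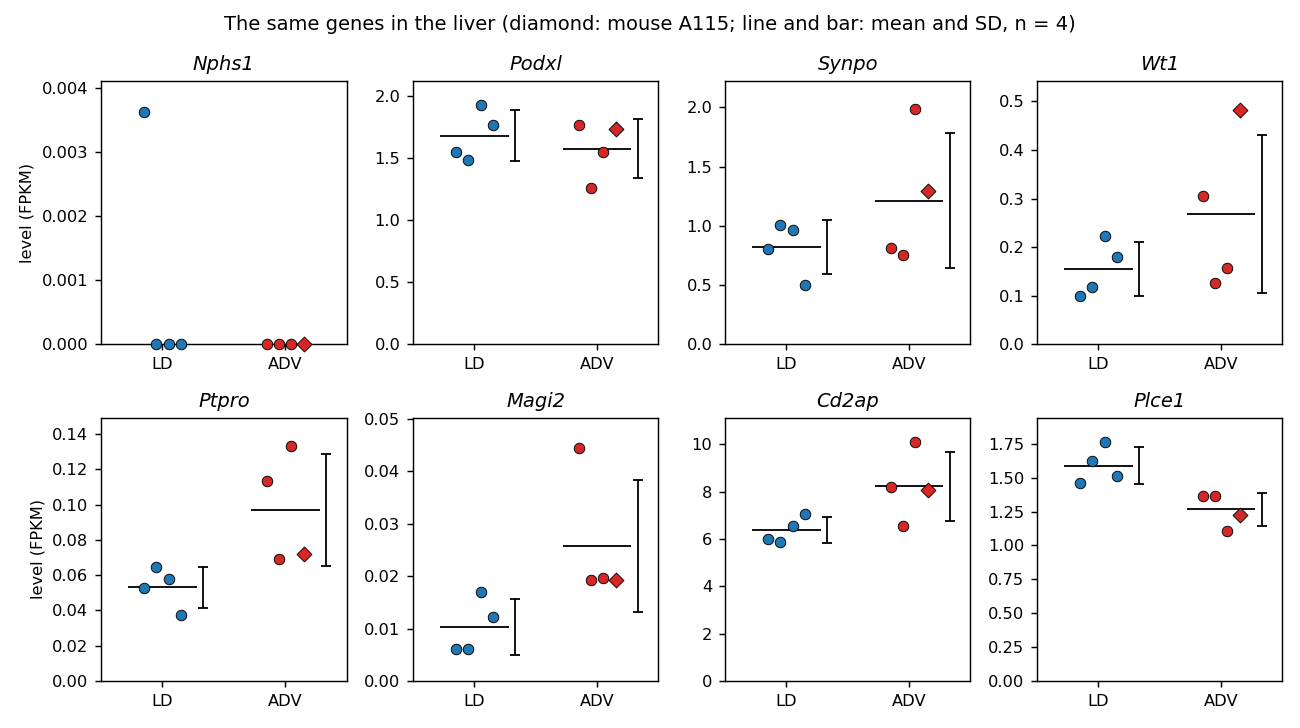
Level of each member in FPKM (vertical axis, from 0) in the 4 LD and the 4 ADV livers, 1 point per mouse, with the mean as a line and the SD as a bar, A115 as a diamond, and no mean drawn for Nphs1, which is at 0 in 7 livers. Plce1 is lower in every ADV liver than in every LD liver, and Ptpro and Magi2 are higher at levels of at most 0.133 FPKM. In fragments the LD and ADV ranges meet, at 10.5 for Ptpro and at 3 for Magi2.

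The difference between the organs in the ADV effect was tested as an interaction. 0 of 8 members and 0% of the 14968 genes passed (0 genes, with 556 at an unadjusted p under 0.05, limma). The interaction was from −0.59 ± 0.32 for Ptpro to −0.06 ± 0.25 for Plce1 in log2. Without A115, 0 of 8 members passed beside 2.74% of all genes, and Cd2ap, with the ADV difference below 0 in the kidney and above 0 in the liver, was at −0.78 ± 0.21 (adjusted p 0.0662). With A115 left out and median-ratio scaling, Cd2ap passed at −0.87 ± 0.17 (limma, adjusted p 0.0275, beside 0.808% of all genes lower), and with A115 left out and the GC correction it was at −0.38 ± 0.23 (adjusted p 0.601).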

How the data were processed

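Poly(A)-selected stranded libraries of whole liver and kidney were sequenced as read pairs by 2 providers. The authors trimmed the reads with Trimmomatic, mapped them to GRCm38/mm10 with STAR 2.5.4b, dropped mapping qualities under 10, and counted reads on exons of UCSC known canonical genes with HOMER; the submitters' processing notes also name bcl2fastq. The deposited values are FPKM per gene and library, headed RPKM, divided by the library's own total and exon length. Multiplied back by length and total, the values fell on steps of 0.5 fragment within 0.02 read. The study's DESeq2 test needs counts and was not used as the main test.

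Libraries were grouped by the light condition in their labels. Genes with a mean FPKM times exon kilobases above 0.5 in an organ (the study's minimum) were tested on log2(FPKM + 0.1) with limma 3.58.1 (R 4.3.3, lmFit and eBayes with a trend), with Benjamini-Hochberg adjustment over all genes tested and a threshold of 0.05; a fold change on this scale is understated for low genes. limma-voom on the recovered fragments was an alternative. Single members were tested by exact permutation, two-sided (scipy 1.17.1). GC content is that of the GENCODE M21 transcript closest in length to the file's exon length, found for 96.2% of kidney genes and 97.1% of liver genes tested; the correction subtracts a smooth curve of each library's deviation on GC. The fits were tested on simulated data in which 200 genes were shifted by 1.5 in log2. The kidney fit recovered 94 of them, the liver fit 157 and the interaction fit 80. Shifts of that size were thus often missed in the kidney and the interaction. Liver and kidney with the same number come from the same mouse; their deviations from group means correlated at 0.0982 to 0.185 in the LD mice and at −0.0242, 0.334, 0.553 and 0.0423 in A75, A91, A94 and A115 over 12319 genes.

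The named genes are all 8 members, and of each of 11 lists every called gene up to 4, otherwise the 2 largest and 2 smallest differences, from which examples are printed, and the 10 genes most like the members' mean. Members and lists were chosen with earlier results of these data known. Each mouse is 1 replicate. Some genes that this rule names are not reported here.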

Additional observations from a re-analysis of the deposited data

Results flagged for a closer look

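Of 31 groups of 4 libraries (a member in an organ and condition), 5 held a library whose gap to its nearest neighbour took more of the group's range than Dixon's critical value allows; chance gives about 1 in 20. In the ADV kidneys A115 stood apart for Nphs1, at 0.960 against 4.75 to 5.11 FPKM (gap over range 0.913), and for Cd2ap, at 77.0 against 20.2 to 25.6 FPKM (0.905). Both come from the library with 30.9% mitochondrial transcripts and the downward GC slope, and the part of these in the values was not tested.

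In the LD kidneys L86 stood apart for Synpo, at 6.53 against 5.40 to 5.56 FPKM (0.857). In the livers the remaining flags rest on few fragments. For Nphs1, L63 had 0.5 fragment where the other LD livers had 0 (gap over range 1), and for Magi2, A75 had 7 fragments where the other ADV livers had 3 each (0.985). No member's ADV effect differed between kidney and liver past the threshold by limma's interaction test with all libraries, where the lowest unadjusted p of a member was 0.0898 for Ptpro.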

How the results depend on the processing

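Between organs 8 of 8 members were called with all libraries and in each of its 19 alternatives, with the same directions, where 75.1% of all genes were called with all libraries. Its size for low liver genes depends on the pseudocount, for Nphs1 from 2.30 with 1 to 9.87 with limma-voom. With the mouse as replicate block, 8 of 8 members were called between organs and 0 in the interaction. In both organs in 1 fit 0 members were called for ADV against LD with or without the replicate block. The pairing of organs thus changed no call of a member in these fits. The interaction fit that called Cd2ap, with A115 left out and median-ratio scaling, was not run with the block. DESeq2 was not run, and the recovered fragments were fitted with limma-voom.

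For ADV against LD in the kidney, the number of members called was 0 in 20 of 22 alternatives and 1 with A115 left out and median-ratio scaling. Leaving out single mice gave 0 to 1, the 1 being without A115. The number of members with ranges apart rose from 0 to 3 without A115. Called list genes numbered 14 (9 higher and 5 lower) with A115 left out and median-ratio scaling, 0 to 17 over single mice left out, and 1 with both organs in 1 fit with or without the replicate block, Apoa1, higher in ADV kidneys and named after its value was seen. In the liver 0 members were called in all 22 alternatives, and in the interaction 0 in 22 of 23 and 1 with A115 left out and median-ratio scaling. Of the order of levels, 4 to 7 of 7 neighbouring pairs differed over single mice left out, against 5 in the main test.

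Directions in the kidney turned for Nphs1, Podxl, Synpo, Ptpro and Cd2ap when A115 was left out, and not for Magi2, Plce1 and Wt1. Over single mice left out, the log2 difference ran from −0.58 to 0.19 for Nphs1, −0.36 to 0.070 for Podxl and −0.36 to 0.53 for Synpo. It ran from −0.34 to 0.022 for Ptpro and −0.43 to 0.21 for Cd2ap. For Magi2 it ran from −0.24 to −0.033, for Wt1 from −0.20 to −0.0066 and for Plce1 from −0.49 to −0.29. In the liver it ran from −0.15 to 0.0063 for Podxl. With A115 left out and median-ratio scaling Nphs1 was at −0.0066, Podxl at −0.13, Ptpro at −0.17, Synpo at 0.34 and Cd2ap at −0.63. Cd2ap was at −0.0026 without L65 and −0.059 without L104. It was at −0.0030 with median-ratio scaling and −0.0011 with quantile normalization. With A115 left out and GC correction, an alternative chosen after seeing the data, it was at −0.19. The interaction ran from −0.57 to 0.20 for Nphs1, −0.34 to 0.21 for Podxl, −0.95 to 0.14 for Synpo and −0.16 to 0.043 for Plce1 over single mice left out. With A115 left out and median-ratio scaling it was 0.0068 for Nphs1, 0.12 for Podxl and 0.043 for Synpo. For Podxl it was 0.020 with quantile normalization and 0.038 with A115 left out and GC correction, with or without the replicate block. For Plce1 it was 0.014 with pseudocount 1, 0.034 with median-ratio scaling, 0.025 with quantile normalization, 0.060 with GC correction and 0.057 with A115 left out and GC correction, each of the last 2 with or without the replicate block. The cause was not tested. Depth limits the liver values of Nphs1, Magi2 and Ptpro, at 0 to 20 fragments a library.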
